A study of Mus musculus with 72 samples.

Results

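Aquaporins are membrane channels for water, and a subset of them, the aquaglyceroporins, also carry glycerol and other small neutral solutes. In liver, Aqp9 is known as the channel of the sinusoidal hepatocyte membrane through which glycerol enters for gluconeogenesis, Aqp8 as a water channel of the canalicular membrane and of intracellular vesicles of hepatocytes, and Aqp1 as the water channel of bile ducts, endothelium and red cells. Aqp11 lies in intracellular membranes. Aqp4 is best known as the water channel of astrocytes, while Aqp3 and Aqp7 are glycerol channels of skin, kidney and fat.

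Of 55573 genes in the liver count table, 7 were taken by their symbols, namely Aqp1, Aqp4 and Aqp8 (water channels), Aqp3, Aqp7 and Aqp9 (aquaglyceroporins) and Aqp11. They were chosen by their rhythm and their levels by group in these same counts, so the levels, fold changes, waves and calls given for them are descriptions and not independent tests. The annotation also lists 5 other aquaporin genes, and these were near absent: Aqp2, Aqp6 and Aqp12 had 0 counts in all 72 libraries, Mip had 1 and Aqp5 had 7.

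Livers came from 72 male C57BL/6 mice, 18 in each of 4 groups, with 3 mice at each of ZT2, ZT6, ZT10, ZT14, ZT18 and ZT22 (zeitgeber time, hours after lights on). SPF WT and GF WT mice carried floxed Bmal1 without Cre (Bmal1 fl/fl), and SPF LKO and GF LKO mice carried the same floxed alleles with Albumin-Cre, so that both genotypes shared the floxed gene. SPF mice were specific pathogen free and GF mice were germ free, and all were adult. Albumin-Cre is driven by a hepatocyte promoter, and the loss of Bmal1 (listed as Arntl) was not measured by cell type here. The tissue is a mixture, and in bulk RNA fewer cells of a type and less RNA per cell cannot be told apart.

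Libraries held 17369927 to 22076113 counts. Hepatocyte markers were high in every library: Alb, the gene of albumin, ranged from 24876 to 135463 CPM (reads of a gene per 1000000 reads, scaled by the TMM method). Alb was also lower in LKO livers (log2 fold change -0.98 in SPF, -1.70 in GF). Of 6 hepatocyte markers, Alb included, 1 was called in SPF and 2 in GF mice between genotypes, all lower, beside 23.1% and 30.8% of all genes. The median log2 fold changes of the 6 were -0.10 and -0.19. Scaling on the bulk of genes and scaling on plain library totals gave different centres. On plain totals the median log2 fold change of all genes moved from -0.01 to 0.10 for SPF LKO against SPF WT, from 0.01 to 0.18 for GF LKO against GF WT, from -0.02 to -0.19 for GF WT against SPF WT and from -0.02 to -0.13 for GF LKO against SPF LKO. The calls of all genes moved with it, from 1527 higher and 1516 lower to 3502 and 856 for the SPF genotypes, from 1970 and 1929 to 6050 and 870 for the GF genotypes, from 1810 and 2259 to 449 and 5887 for the microbial contrast in WT mice, and from 2349 and 2392 to 993 and 4564 for that in LKO mice. In WT mice Arntl ran from 0.624 to 39.8 CPM over the day in SPF and from 0.331 to 40.6 CPM in GF livers, whereas it stayed between 7.04 and 13.4 CPM in GF LKO and had a median of 11.6 CPM in SPF LKO livers. Gene-level counts do not separate the floxed exon. Npas2, a paralogue of the clock gene Clock, had medians of 0.284 and 0.333 CPM in SPF WT and GF WT livers. Its medians were 24.5 and 26.1 CPM in SPF LKO and GF LKO livers.

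Some libraries went against their labels. Npas2 was at 0.219 CPM in 1 library labelled SPF LKO ZT14 (replicate 2), where its companions of that group and time had at least 24.0, and at 1.82 CPM in that labelled SPF LKO ZT18 replicate 1, where companions had at least 27.5. Arntl was at 2.12 CPM in a library labelled SPF WT ZT14 replicate 3 (companions at least 15.8) and at 8.21 CPM in a library labelled GF WT ZT6 replicate 3 (companions at most 2.43). For the fold changes and waves below, values without these 4 libraries are given beside the results or gathered after the microbial contrast.

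The circadian activator formed by BMAL1 and CLOCK binds the E-box, so the start regions of the genes are shown before their values. RefSeq windows (GRCm38.p6) that reach from 250 bases before to 50 bases after a start site were at hand for 6 of the 7 genes. No window was at hand for Aqp4, which was not searched. The windows were searched on both strands for the E-box CACGTG, the variant CACGTT, the D-box TTANGTAA and the ROR element TAGGTCA. The E-box was found in 7.15% of 32851 windows of this length, the variant in 4.68%, the D-box in 2.32% and the ROR element in 2.61%. Among the aquaporins an E-box was found in the window of Aqp8, starting 75 bases before the start site, and the variant was found on the opposite strand of 1 of the Aqp9 windows, 149 bases before it. None of the 4 motifs was in the windows of Aqp1, Aqp3, Aqp7 and Aqp11, which says only that these letters are not there. The 250 bases before the start are given 5′ to 3′ on the strand of the gene, with the motif in capitals, for Aqp8 (chr7:123462044-123462293, plus strand) and Aqp9 (chr9:71162634-71162883, minus strand), the genes whose windows hold a match, and for Aqp11 (chr7:97738248-97738497, minus strand), whose wave was of opposite phase to that of Aqp8.
Aqp8: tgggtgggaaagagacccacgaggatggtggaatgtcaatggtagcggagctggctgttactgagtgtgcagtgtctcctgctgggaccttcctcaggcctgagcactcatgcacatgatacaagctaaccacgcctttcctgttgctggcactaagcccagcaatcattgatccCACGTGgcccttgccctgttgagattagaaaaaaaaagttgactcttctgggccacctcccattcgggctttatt
Aqp9: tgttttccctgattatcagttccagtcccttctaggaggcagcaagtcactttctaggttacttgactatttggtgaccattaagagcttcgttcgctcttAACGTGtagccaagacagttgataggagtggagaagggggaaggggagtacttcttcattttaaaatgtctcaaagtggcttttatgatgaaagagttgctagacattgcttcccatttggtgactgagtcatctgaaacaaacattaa
Aqp11: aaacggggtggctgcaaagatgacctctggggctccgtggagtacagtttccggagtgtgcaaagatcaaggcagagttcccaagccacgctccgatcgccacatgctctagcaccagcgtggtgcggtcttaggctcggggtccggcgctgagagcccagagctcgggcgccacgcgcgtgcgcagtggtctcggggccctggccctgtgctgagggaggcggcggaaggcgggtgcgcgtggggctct

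The levels of the 7 genes spanned 5 abundant or detectable mRNAs and 2 near zero. Per exon length, in RPKM (CPM divided by the exon length in kilobases) over all 72 libraries, Aqp9 (chromosome 9, 71110659 to 71168682, minus strand, GRCm38) was highest with a mean of 114. Aqp8 (chromosome 7, 123462291 to 123468004, plus strand) followed with 78.9, Aqp1 (chromosome 6, 55336432 to 55348555, plus strand) with 49.3, Aqp11 (chromosome 7, 97724006 to 97738289, minus strand) with 4.20 and Aqp4 (chromosome 18, 15389496 to 15410982, minus strand) with 1.05. Aqp1 lay above Aqp11, and Aqp11 above Aqp4, in 72 of 72 libraries. The upper 3 were not so ordered, since Aqp9 exceeded Aqp8 in 49 and Aqp8 exceeded Aqp1 in 52 of 72 libraries. In SPF WT livers the per-length level of Aqp8 was 60.5 ± 34.1 and that of Aqp1 53.05 ± 6.20 (SD, n = 18), a difference within the spread of Aqp8. Aqp9 made up 43.3% to 48.5% of the summed per-length level of the 7 genes in the 4 groups, and Aqp8 made up 25.98% to 37.02%.

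Aqp3 (chromosome 4, 41092722 to 41098183, minus strand) and Aqp7 (chromosome 4, 41033074 to 41048139, minus strand) had 24 and 28 counts in all. Aqp3 was at 0 in 51 and Aqp7 at 0 in 53 of 72 libraries, and neither had more than 4 counts in any library. A count of 0 allows up to 3 counts, or 0.173 CPM in the shallowest library, by counting error alone. Summed over libraries, Aqp7 had 12 counts in SPF WT and 1 in GF WT livers, with 9 and 17 libraries at 0. It had 8 counts in SPF LKO and 7 in GF LKO livers. Aqp3 and Aqp7 failed the filter on low counts, so 5 of the 7 genes were tested. No difference between groups is read for Aqp3 and Aqp7 at this depth. Of the adipocyte markers, Adipoq and Plin1 had 39 and 9 counts over all libraries and Fabp4 had 6.99 to 25.4 CPM.

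**Figure D1:**
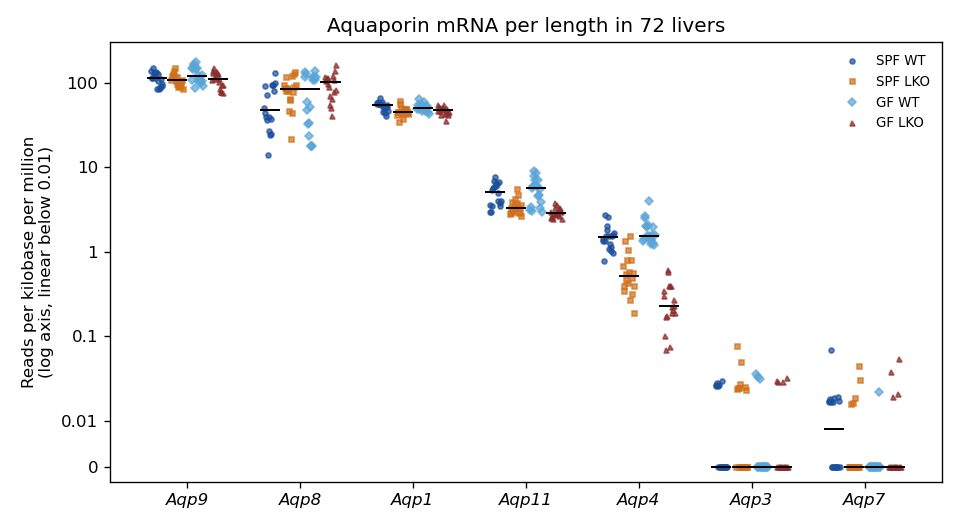
Each point is 1 liver and each column 1 group of 18 livers, with the level per length (RPKM) on a log axis that is linear below 0.01 and a black bar at the median. Aqp9, Aqp8 and Aqp1 lie above 10, Aqp11 and Aqp4 lie between 0.05 and 10, Aqp3 and Aqp7 lie at or near 0, and the GF LKO points of Aqp4 lie below all GF WT points.

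Aqp4, the astrocyte water channel, was the aquaporin that differed most between genotypes. In SPF WT livers it measured 4.83 to 17.1 CPM with a median of 9.18, and in SPF LKO livers 1.18 to 9.64 CPM with a median of 3.18. In GF WT livers it measured 7.37 to 24.9 CPM with a median of 9.61, and in GF LKO livers 0.430 to 3.81 CPM with a median of 1.41. The highest GF LKO liver thus lay below the lowest GF WT liver, which was so for 0.878% of 11846 genes with a mean of at least 1 CPM, while 13 of 18 SPF LKO livers lay below the SPF WT range. These levels rested on few reads, from 8 to 443 counts per library.

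At single time points the gap in Aqp4 was present around the day. At ZT10, where WT levels were highest, the 3 livers had 12.4, 11.3 and 15.96 CPM in SPF WT and 5.01, 6.51 and 2.67 CPM in SPF LKO mice. At the same time they had 9.46, 12.8 and 24.9 CPM in GF WT and 3.81, 3.56 and 2.46 CPM in GF LKO mice. In GF mice the genotypes did not overlap at any of the 6 times, as for 1.8% of genes in this direction, and the ratio of WT to LKO means ran from 4.80 at ZT10 to 16.2 at ZT6. In SPF mice they did not overlap at ZT2, ZT10, ZT18 and ZT22, a separation in this direction that 14.4%, 13.8%, 5.91% and 10.2% of genes showed at these times. At ZT6 they had 17.1, 8.22 and 9.66 CPM in SPF WT, 8.41, 2.88 and 3.35 in SPF LKO, 16.5, 12.6 and 12.1 in GF WT and 0.430, 1.04 and 1.08 in GF LKO livers, where 1 SPF LKO liver reached into the SPF WT range. At ZT22 they had 5.92, 10.3 and 9.68 CPM in SPF WT, 3.50, 2.42 and 1.18 in SPF LKO, 12.3, 7.37 and 9.75 in GF WT and 1.43, 1.69 and 1.18 in GF LKO livers, so that the gap was still present before lights on. At ZT14 the SPF genotypes overlapped through SPF LKO replicate 2, a library unlike its label, whose 9.64 CPM was the highest of its group.

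Pooled over time points, 3 of the 5 tested aquaporins were called in SPF LKO against SPF WT, where edgeR's quasi-likelihood test called 23.1% of 13159 genes, and all 3 were lower, as were 11.5% of genes. Aqp4 fell 2.44-fold (log2 fold change -1.29 ± 0.21 SE), Aqp11 1.43-fold (-0.51 ± 0.12) and Aqp1 1.15-fold (-0.20 ± 0.06). In GF LKO against GF WT, 2 of 5 were called, both lower, beside 30.8% of 12662 genes, with 15.2% called as lower. Aqp4 fell 6.60-fold (-2.72 ± 0.21) and Aqp11 1.85-fold (-0.89 ± 0.13). In SPF mice the call of Aqp11 was lost without replicate 3 of both groups (-0.37), and that of Aqp1 without replicate 1 (-0.14) or replicate 3 (-0.20). Because levels by group chose these genes, nothing is read from these counts. Without the 4 libraries the SPF values were -1.46 for Aqp4, -0.58 for Aqp11 and -0.21 for Aqp1, and the GF values were -2.72 for Aqp4 and -0.85 for Aqp11.

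The genotype difference of Aqp4 was larger in GF than in SPF mice. The GF effect minus the SPF effect was -1.44 ± 0.30 on the log2 scale, and -1.26 without the 4 libraries. This difference of effects was called for 1 of the 5 aquaporins and for 0.438% of 13484 genes, and in this direction for 0.319%. With replicate 1, 2 or 3 of every group left out it was -1.44, -1.41 and -1.45 and was no longer called. For Aqp11 the same quantity was -0.38 ± 0.18, for Aqp8 -0.18 ± 0.35, for Aqp9 -0.13 ± 0.13 and for Aqp1 0.08 ± 0.08, none of them called.

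Aqp11, the intracellular aquaporin, was lower in LKO livers mainly when WT levels were high. At ZT2 the 3 livers had 27.7, 33.6 and 27.97 CPM in SPF WT, 27.3, 31.1 and 26.5 in SPF LKO, 29.2, 31.7 and 28.5 in GF WT and 23.3, 27.8 and 24.3 in GF LKO mice. At ZT10 they had 55.1, 65.2 and 71.4 CPM in SPF WT, 31.96, 40.04 and 33.3 in SPF LKO, 85.6, 66.8 and 80.4 in GF WT and 35.4, 31.1 and 26.2 in GF LKO mice. The groups lay close together early in the light phase and apart at its end, when WT livers had 1.82 times (SPF) and 2.51 times (GF) the LKO mean. SPF LKO lay below SPF WT without overlap at ZT10 and ZT14, where 13.8% and 5.09% of genes did so. GF LKO lay below GF WT without overlap at every time but ZT22, with ratios of WT to LKO means from 1.19 at ZT2 to 2.51 at ZT10, and the shares of genes that did so were 8.46%, 14.9%, 15.6%, 17.4% and 17.4% from ZT2 to ZT18. At ZT14 the livers had 60.5, 55.8 and 59.8 CPM in SPF WT, 30.9, 51.7 and 35.9 in SPF LKO, 58.1, 54.5 and 67.1 in GF WT and 33.9, 27.1 and 26.004 in GF LKO livers. By ZT22 they had 32.7, 37.05 and 35.1 CPM in SPF WT, 27.6, 33.6 and 24.6 in SPF LKO, 30.7, 36.3 and 27.6 in GF WT and 28.7, 28.1 and 22.9 in GF LKO livers, when WT livers had returned to near their ZT2 level and the genotypes overlapped in both housing states. The 2 highest SPF LKO values, 51.7 and 44.1 CPM, belonged to the ZT14 and ZT18 libraries that went against their labels.

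**Figure D2:**
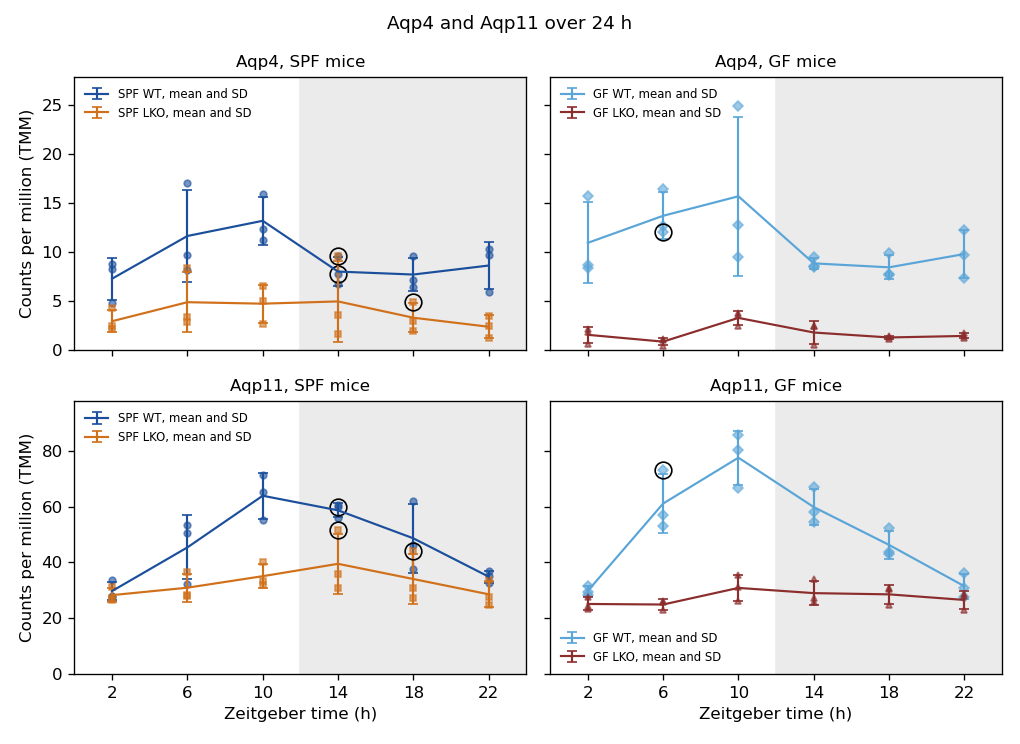
Aqp4 (upper) and Aqp11 (lower) in SPF (left) and GF (right) livers, as CPM against zeitgeber time, with 1 point per liver, lines and bars for the mean and SD of 3 livers, the dark phase shaded and rings around the 4 libraries that go against their labels. The mean of Aqp4 in LKO livers lies under that in WT livers at all 6 times, with single SPF livers overlapping at ZT6 and ZT14, and Aqp11 rises to 63.9 (SPF WT) and 77.6 CPM (GF WT) at ZT10 while its LKO means stay between 24.9 and 39.5 CPM.

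Aqp1, the water channel of bile ducts and endothelium, differed little. It measured 107 to 172 CPM in SPF WT (median 144), 90.1 to 160 in SPF LKO (median 118), 112 to 170.2 in GF WT (median 133) and 93.5 to 145 in GF LKO livers (median 125), so all groups overlapped. At single times SPF LKO lay below SPF WT without overlap at ZT2 and ZT10, as did 14.4% and 13.8% of genes, and GF LKO below GF WT at ZT6, as did 14.9%. Its SPF genotype value of -0.20 became -0.10 and was not called on plain library totals, and its GF value of -0.12 ± 0.05 became 0.05. The summed level of 9 sinusoidal endothelial markers ranged over 261 to 352 CPM in SPF WT, 213 to 364 in SPF LKO, 243 to 334 in GF WT and 231 to 286 in GF LKO livers. The sum of 7 cholangiocyte markers had medians of 65.3, 85.7, 56.9 and 103 CPM in the same order, with ranges of 46.7 to 110.3, 40.5 to 148, 37.98 to 68.004 and 57.1 to 176. None of the 7 was at 0 in a whole group, and Spp1 alone had a median of 50.3 CPM over all libraries. Of the 6 tested, 2 were called in SPF and 3 in GF mice between genotypes, all higher. Of the 9 endothelial markers 2 were called in SPF mice, both lower, and 2 in GF mice, 1 higher and 1 lower. The shares of all genes called were 23.1% and 30.8%. The sum of 6 erythroid markers had medians of 276, 214, 286 and 222 CPM and ranges of 182 to 527, 130.04 to 702, 207 to 370.2 and 144 to 324, none of them at 0 in a whole group, and in each genotype contrast 1 of the 5 tested was called, as lower. The part of these 3 cell types in the level of Aqp1 was not tested.

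Aqp8, the canalicular water channel, varied more over the day than between pooled groups. It measured 22.2 to 208 CPM in SPF WT (median 74.2), 34.3 to 214 in SPF LKO (median 134), 28.2 to 219 in GF WT (median 132) and 63.3 to 253 in GF LKO livers (median 160). Over pooled time points its log2 fold change between genotypes was 0.47 ± 0.23 in SPF and 0.30 ± 0.26 in GF mice and was not called. With ZT as a covariate, which takes the daily variation out of the error, it was 0.59 and 0.56 and was called as higher in LKO livers in both.

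The trough of Aqp8, at ZT10 or ZT14, had a higher mean in LKO livers. At ZT6 the 3 livers had 62.2, 57.2 and 112 CPM in SPF WT, 128, 135 and 125 in SPF LKO, 74.3, 94.2 and 51.8 in GF WT and 178, 181 and 154 in GF LKO mice. At ZT14 they had 38.2, 38.5 and 59.03 CPM in SPF WT, 98.8, 34.3 and 70.1 in SPF LKO, 28.2, 28.5 and 28.3 in GF WT and 78.6, 101 and 63.3 in GF LKO mice. LKO lay above WT without overlap at ZT6 and ZT10 in SPF mice, where 15.4% and 15.5% of genes did so, and at ZT6, ZT10 and ZT14 in GF mice, where 13.8%, 16% and 17% did so. The lowest SPF LKO value at ZT14, 34.3 CPM, was that of replicate 2, the library unlike its label. At ZT10 the livers had 22.2, 42.3 and 61.3 CPM in SPF WT, 134, 72.2 and 102 in SPF LKO, 36.6, 52.8 and 82.5 in GF WT and 139.9, 86.2 and 109 in GF LKO livers. By ZT18 they had 150.3, 149 and 148 CPM in SPF WT, 192, 124 and 139 in SPF LKO, 183.8, 169 and 185 in GF WT and 190.4, 123 and 168 in GF LKO livers, and the genotypes overlapped again. They overlapped at ZT22 as well, with 125, 158 and 208 CPM in SPF WT, 198, 214 and 147 in SPF LKO, 219, 172 and 185 in GF WT and 216, 129 and 253 in GF LKO mice.

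Aqp9, the hepatocyte glycerol channel, differed little between groups. It measured 345 to 625 CPM in SPF WT (median 472), 348 to 624 in SPF LKO (median 441), 363 to 734 in GF WT (median 491) and 314 to 612 in GF LKO livers (median 458). The log2 fold change between genotypes was -0.05 ± 0.08 in SPF and -0.18 ± 0.10 in GF mice, neither called. With ZT as a covariate the GF value was -0.19 and was called, and on plain library totals it was -0.01. At ZT6 the livers had 625, 537 and 537 CPM in SPF WT, 519, 564 and 624 in SPF LKO, 683, 666 and 363 in GF WT and 612, 460.4 and 489 in GF LKO livers, and at ZT14 they had 345, 439 and 531 CPM in SPF WT, 397, 372 and 376 in SPF LKO, 507, 428 and 475 in GF WT and 529, 456 and 420.3 in GF LKO livers, with all genotype pairs overlapping at both times. At ZT18 the GF genotypes did not overlap, with 444, 431 and 415 CPM in WT and 350.1, 319 and 325 in LKO livers, as for 17.4% of genes in this direction, and they were also apart at ZT10, as for 15.6% of genes.

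A 24 h cosine wave was fitted within each group to describe rhythm. Of the 5 tested aquaporins, 4 were called rhythmic in SPF WT (Aqp1, Aqp8, Aqp9 and Aqp11) beside 15% of 13907 genes and 2 in SPF LKO (Aqp8 and Aqp9) beside 21.2% of 14028 genes. In GF WT, 4 were called (Aqp4, Aqp8, Aqp9 and Aqp11) beside 26.7% of 13203 genes, and in GF LKO 2 (Aqp8 and Aqp9) beside 35% of 13494 genes. The rhythms chose these genes too, so the counts are read no further.

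Aqp8 had the largest fitted amplitude of the 5 in every group, in LKO livers within the error of that of Aqp4, and in SPF LKO livers without the 4 libraries it had 0.49 and Aqp4 0.59. Its log2 amplitude, the height of the wave above its mean, was 0.99 ± 0.16 in SPF WT, 0.58 ± 0.13 in SPF LKO, 1.27 ± 0.17 in GF WT and 0.55 ± 0.10 in GF LKO livers, which corresponds to peak to trough ratios of 3.97, 2.25, 5.83 and 2.15. The peak lay late in the dark phase or at lights on, at ZT22.1 ± 0.59 h, ZT23.8 ± 0.83 h, ZT23.0 ± 0.50 h and ZT0.49 ± 0.72 h. The difference between the fitted waves had a log2 size of 0.54 between the SPF genotypes, not called, and of 0.79 between the GF genotypes, called. The GF call was lost without GF WT ZT6 replicate 3, at 0.76, which is also the value without the 4 libraries, and when any of 25 of the 36 libraries (that one included) was left out in turn, with sizes between 0.73 and 0.98 over the 36 omissions.

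The wave of Aqp11 peaked in the opposite part of the day. Its log2 amplitude was 0.54 ± 0.07 in SPF WT with a peak at ZT12.4 ± 0.51 h and 0.69 ± 0.07 in GF WT with a peak at ZT10.9 ± 0.38 h. In LKO livers the amplitude was 0.24 ± 0.07 in SPF and 0.14 ± 0.05 in GF mice, neither called. The difference of the waves had a size of 0.59 between the GF genotypes, called, and of 0.31 between the SPF genotypes, not called. Without the 4 libraries these sizes were 0.57 and 0.40, and the SPF LKO amplitude was 0.16. That amplitude was called without SPF LKO ZT14 replicate 1, at 0.27, or SPF LKO ZT18 replicate 3, at 0.26.

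Aqp9 kept a wave of near the same size in all groups. Its log2 amplitude was 0.31 ± 0.05 in SPF WT, 0.27 ± 0.04 in SPF LKO, 0.29 ± 0.08 in GF WT and 0.36 ± 0.06 in GF LKO livers, with peaks in the light phase at ZT6.58 ± 0.67 h, ZT5.48 ± 0.62 h, ZT7.21 ± 0.997 h and ZT7.39 ± 0.60 h. The difference of the waves between genotypes was 0.08 in SPF and 0.08 in GF mice and was not called, which does not show that they were equal. Among GF WT livers at ZT6, replicate 3 (against its label by Arntl) had 363 CPM beside 683 and 666, and without the 4 libraries the GF WT amplitude was 0.37. The GF WT call was lost without GF WT ZT6 replicate 1, at 0.27.

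Aqp1 and Aqp4 had waves that were smaller or less certain. Aqp1 had a log2 amplitude of 0.18 ± 0.04 in SPF WT, peaking at ZT5.69 ± 0.87 h, and of 0.03 ± 0.06, 0.08 ± 0.05 and 0.09 ± 0.05 in SPF LKO, GF WT and GF LKO livers. Aqp4 had amplitudes of 0.35 ± 0.13 in SPF WT, 0.55 ± 0.22 in SPF LKO, 0.42 ± 0.12 in GF WT and 0.48 ± 0.24 in GF LKO livers, with fitted peaks between ZT7.11 and ZT11.3. The GF WT wave of Aqp4 was called, and lost its call when any of 9 of the 18 GF WT libraries was left out. No difference of waves was called for either gene in the 4 pairs of groups.

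**Figure D3:**
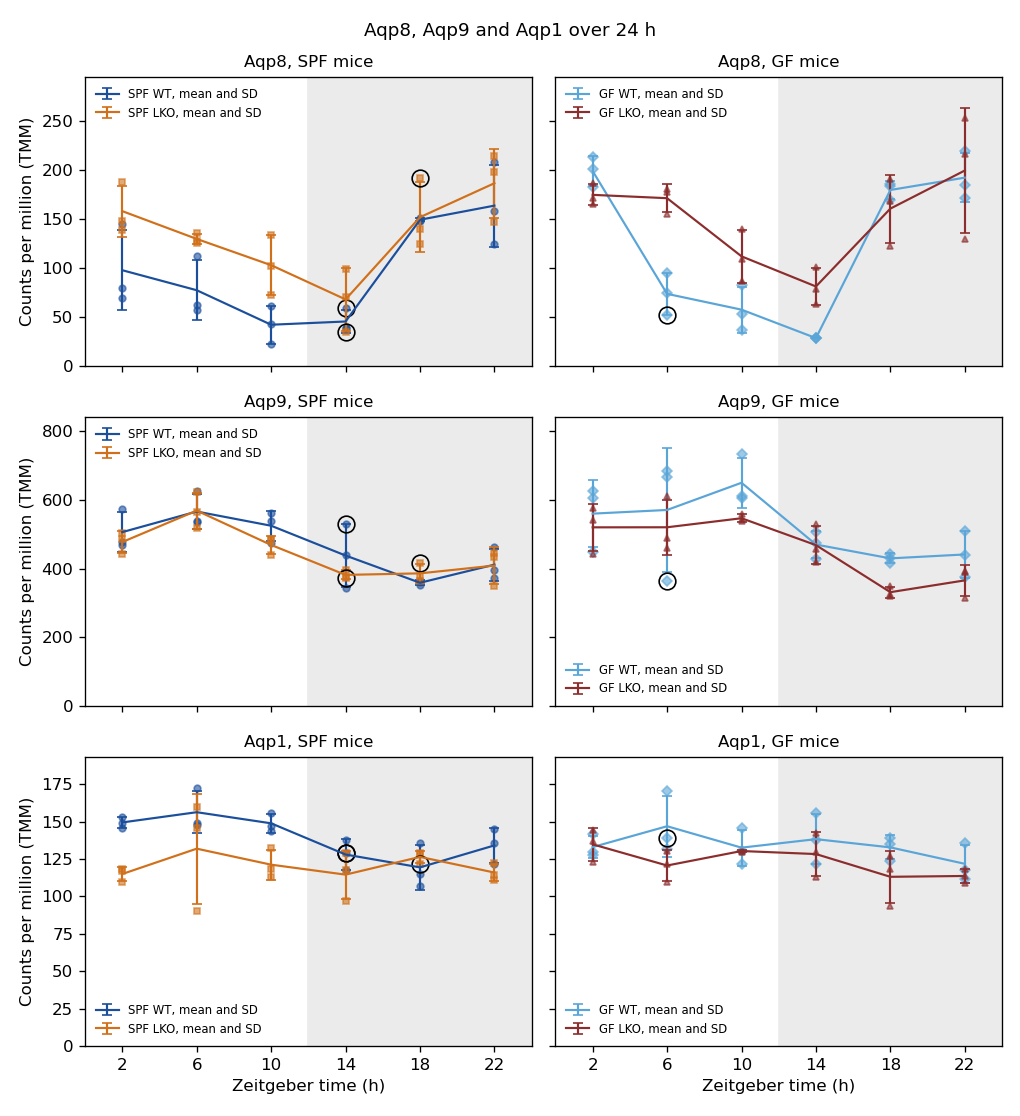
Aqp8 (upper), Aqp9 (middle) and Aqp1 (lower) in SPF (left) and GF (right) livers, as CPM against zeitgeber time, with 1 point per liver, lines and bars for the mean and SD of 3 livers, the dark phase shaded and rings around the 4 libraries that go against their labels. The mean of Aqp8 is lowest at ZT10 in SPF WT (41.9 CPM, with 45.2 at ZT14) and at ZT14 in GF WT livers (28.3 CPM), and returns by ZT18. Aqp9 is lowest in the dark phase in all 4 groups, and Aqp1 stays between 113 and 156 CPM on average.

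The microbial contrast, GF against SPF within a genotype, shares its samples with the genotype contrasts and is given for the same genes. In WT mice edgeR called 0 of the 5 aquaporins, beside 31.8% of 12776 genes, with 0 at an unadjusted p under 0.05 and 0 called by DESeq2. The log2 fold changes of GF WT against SPF WT were 0.24 ± 0.15 for Aqp4, 0.33 ± 0.30 for Aqp8, 0.14 ± 0.09 for Aqp9, 0.11 ± 0.15 for Aqp11 and -0.07 ± 0.05 for Aqp1. On plain library totals Aqp1 was called as lower, at -0.24, beside the shift of all genes given above, and Aqp9 and Aqp11 changed sign to -0.03 and -0.05. In LKO mice 2 of 5 were called, both lower, beside 36.4% of 13010 genes, with 18.4% called as lower. Aqp4 fell 2.27-fold (-1.18 ± 0.26) and Aqp11 1.19-fold (-0.26 ± 0.08) in GF LKO against SPF LKO, and without the 4 libraries these values were -1.02 and -0.17. The call of Aqp11 was lost without replicate 2 of both groups, also at -0.17. The highest SPF LKO value of Aqp4 and the 2 highest of Aqp11 belonged to libraries that went against their labels, and 7 of 18 GF LKO livers lay below the SPF LKO range for Aqp4.

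The waves were also compared between microbial states. The log2 sizes of the difference between the waves of GF WT and SPF WT were 0.38 for Aqp8, 0.28 for Aqp11, 0.15 for Aqp4, 0.15 for Aqp1 and 0.06 for Aqp9. edgeR called 0 of 5, beside 0.0355% of 14090 genes, with 1 at an unadjusted p under 0.05 (Aqp11), and limma called 0. For GF LKO against SPF LKO they were 0.17 for Aqp9, 0.14 for Aqp4, 0.11 for Aqp8, 0.10 for Aqp11 and 0.05 for Aqp1. Without the 4 libraries that of Aqp4 was 0.46, the largest of the 5 and not called, and with single libraries left out it ran from 0.06 to 0.31. Here edgeR called 0 of 5, beside 4.45% of 14234 genes, with 0 at an unadjusted p under 0.05, and limma called 0. The genotype differences in rhythm were called for 0 of 5 in SPF mice, beside 1.02% of 14442 genes, with 2 at an unadjusted p under 0.05 (Aqp11 and Aqp8) and 0 called by limma, and for 2 of 5 (Aqp11 and Aqp8) in GF mice, beside 5.81% of 13806 genes.

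Without the 4 libraries the other values were as follows. The genotype log2 fold changes of Aqp8 were 0.47 in SPF and 0.25 in GF mice, those of Aqp9 were -0.02 and -0.21, and that of Aqp1 in GF mice was -0.12. For GF WT against SPF WT they were 0.22 for Aqp4, 0.34 for Aqp8, 0.18 for Aqp9, 0.10 for Aqp11 and -0.08 for Aqp1, and for GF LKO against SPF LKO 0.14 for Aqp8, 0.0064 for Aqp9 and 0.03 for Aqp1. The genotype effect in GF minus that in SPF mice was -0.28 for Aqp11, -0.22 for Aqp8, -0.19 for Aqp9 and 0.09 for Aqp1. The amplitudes of Aqp8 were 0.997 in SPF WT and 1.26 in GF WT, those of Aqp11 0.55 and 0.68, those of Aqp4 0.36 and 0.45 and those of Aqp1 0.18 and 0.08, while Aqp9 had 0.33 in SPF WT. In SPF LKO livers Aqp9 had 0.29 and Aqp1 0.04. The sizes of wave differences between SPF genotypes were 0.60 for Aqp8, 0.27 for Aqp4, 0.14 for Aqp1 and 0.05 for Aqp9, and between GF genotypes 0.49 for Aqp4, 0.04 for Aqp9 and 0.02 for Aqp1. Between GF WT and SPF WT they were 0.42 for Aqp8, 0.23 for Aqp11, 0.23 for Aqp4, 0.14 for Aqp1 and 0.10 for Aqp9, and between GF LKO and SPF LKO 0.16 for Aqp9, 0.12 for Aqp8, 0.10 for Aqp11 and 0.05 for Aqp1. None of the calls on these values differed from that with all libraries.

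With 1 replicate number left out of a whole group, some calls of rhythm were lost. The call of Aqp8 was lost in SPF WT without replicate 2 (0.90), in SPF LKO without replicate 2 (0.38) or replicate 3 (0.64) and in GF LKO without replicate 3 (0.47). That of Aqp9 was lost in SPF WT without replicate 2 (0.32) and in GF WT without replicate 1 (0.29) or replicate 2 (0.25). That of Aqp1 was lost in SPF WT without replicate 2 (0.18) or replicate 3 (0.15), and that of Aqp4 in GF WT without any of the 3. That of Aqp11 in WT livers was kept in each case.

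**Figure D4:**
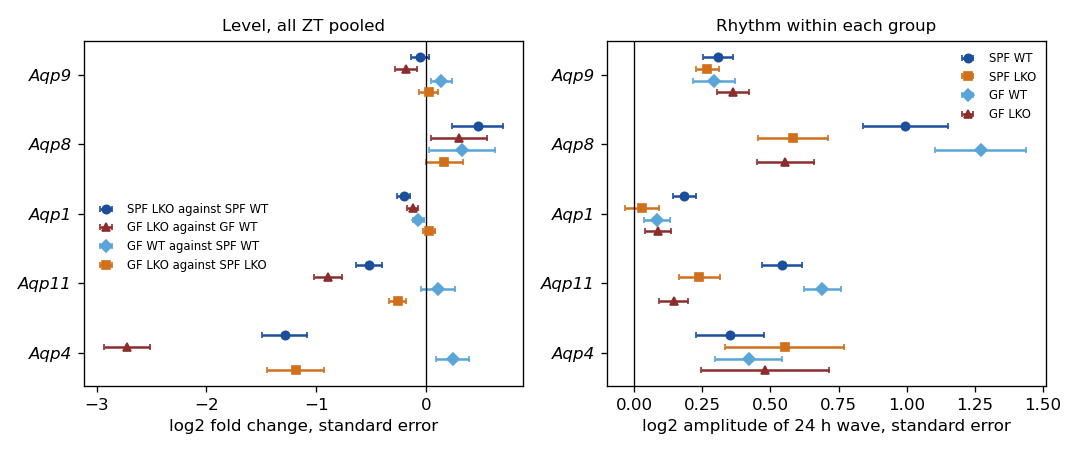
Left, log2 fold change of each tested aquaporin in the 4 pairs of groups with all times pooled, and right, log2 amplitude of the fitted 24 h wave in each group, with points for estimates and bars for 1 standard error. Aqp4 stands farthest left, at -2.72 for GF LKO against GF WT, and Aqp8 farthest right in amplitude, at 1.27 in GF WT.

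Genes that handle glycerol around Aqp9 were read from the same fits, from a list of 14 that were all tested. In SPF LKO against SPF WT, 6 were called, 5 lower and 1 higher, beside 23.1% of all genes, with 11.5% called as lower. The median log2 fold change of the list was -0.24 where that of all genes was -0.01. In GF LKO against GF WT, 8 were called, all lower, beside 30.8% of all genes, with 15.2% called as lower. The median there was -0.29 against 0.01. Mgll, which frees glycerol from monoacylglycerol, fell by 0.45 ± 0.11 (SPF) and 0.67 ± 0.11 (GF) on the log2 scale. Gpd1l, a glycerol 3-phosphate dehydrogenase, fell by 0.34 ± 0.07 and 0.51 ± 0.07, and Lipe, hormone-sensitive lipase, fell by 0.37 ± 0.10 and 0.35 ± 0.10. Gk, the kinase that traps glycerol in the hepatocyte, was not called, at 0.12 ± 0.08 and 0.18 ± 0.07. G0s2, an inhibitor of adipose triglyceride lipase, fell by 1.29 ± 0.40 in GF mice. On plain library totals the split was 3 higher and 4 lower in SPF and 3 higher and 5 lower in GF mice, with medians of -0.14 and -0.12. Called rhythmic were 8 of the 14 in SPF WT, 6 in SPF LKO, 3 in GF WT and 5 in GF LKO livers, beside 15%, 21.2%, 26.7% and 35% of all genes. In GF LKO against SPF LKO 4 of the 14 were called, 2 higher and 2 lower, beside 36.4% of all genes. In GF WT against SPF WT 1 was called, as higher, beside 31.8%.

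Of 13 genes of canalicular secretion and bile formation, the setting of Aqp8, 12 were tested. In SPF LKO against SPF WT 4 were lower and 1 higher, beside 23.1% of all genes called. In GF LKO against GF WT 4 were lower and 2 higher, beside 30.8%. The medians were -0.06 in both, and on plain library totals the splits turned to 4 higher and 2 lower in both. Slc47a1, an exporter of organic cations, fell by 1.43 ± 0.19 (SPF) and 2.00 ± 0.08 (GF) on the log2 scale, and Abcb1a, a multidrug exporter, fell by 1.54 ± 0.26 and 1.94 ± 0.23. Abcb11, the bile salt export pump, was higher in GF LKO livers by 0.42 ± 0.12. Its wave peaked at ZT0.88 in SPF WT and ZT0.20 in GF WT livers, with log2 amplitudes of 0.45 and 0.51, beside peaks of Aqp8 at ZT22.1 and ZT23.0. Called rhythmic were 5 of 12 in SPF WT, 3 of 12 in SPF LKO, 8 of 12 in GF WT and 7 of 13 in GF LKO livers. The shares of all genes called rhythmic were 15%, 21.2%, 26.7% and 35%. Between microbial states 2 of 12 were called in WT mice, beside 31.8% of all genes, and 5 of 12 in LKO mice, beside 36.4%. The 2 in WT mice were Slc10a1, the bile salt uptake carrier (0.36), and Abcb4, a phospholipid exporter (-0.22).

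Of 6 genes of the response to hypertonicity, which cells use to balance water, all were tested. In GF WT against SPF WT 4 were called: Nfat5, the transcription factor of that response, fell by 0.68 ± 0.10, the taurine transporter Slc6a6 fell by 0.45 ± 0.11, and Slc6a12 (0.64 ± 0.06) and Akr1b3 (0.51 ± 0.13) were higher, a split that was also 2 higher and 2 lower on plain library totals. In GF LKO against SPF LKO 5 were called, 3 higher and 2 lower, and on plain library totals 2 higher and 2 lower. Each genotype contrast called 1 of 6, Slc38a2 in SPF (-0.52 ± 0.15) and Nfat5 in GF mice (0.25 ± 0.07), which on plain library totals became 2 and 4 of 6. The shares of all genes called were 31.8% and 36.4% in the microbial and 23.1% and 30.8% in the genotype contrasts. Called rhythmic were 0, 1, 1 and 3 of 6 in SPF WT, SPF LKO, then GF WT and GF LKO livers, beside 15%, 21.2%, 26.7% and 35% of all genes.

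Across the 24 means of group and time, the aquaporins also differed from one another. Aqp11 and Aqp8 ran opposite, with Pearson's r = -0.75, and Aqp11 and Aqp4 ran together, with r = 0.78. These correlations describe means over 3 livers that share libraries between genes and carry no test. Among 11846 genes with a mean of at least 1 CPM, the profiles most like Aqp11 were those of Gys2, liver glycogen synthase (r = 0.96), Nrg4 (0.96) and Fam102a (0.95). Those most like Aqp4 were Slc16a7, a monocarboxylate transporter (0.94), Wdr73 (0.93) and Sytl1 (0.93). Those most like Aqp8 were Ethe1, a mitochondrial sulfur dioxygenase (0.94), Psen2 (0.90) and Dhrs3 (0.90). Those most like Aqp9 were Zkscan17 (0.92), Rnf4 (0.89) and Ift46 (0.89), and those most like Aqp1 were Tbc1d20 (0.86), Ubn1 (0.83) and Arel1 (0.83).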

How the data were processed

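RNA of 72 livers was sequenced after preparation with a stranded mRNA kit. Per the labels and the study's methods, the authors aligned reads with STAR 2.6.1b to the mouse genome (mm10, GRCm38, Ensembl annotation), and the deposited values are raw counts of reads per gene from featureCounts 2.0.0, without use of strand and without multi-mapped reads. Genes that overlap Aqp4 and Aqp9 shared 0 exon bases with them. No p-value here covers more than the spread between livers, and counting error alone sets the limits given for counts of 0.

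Each library took its group from its label. Counts of all genes kept by filterByExpr were fitted in edgeR 4.0.16 (quasi-likelihood test, TMM scaling, Benjamini-Hochberg adjustment over all genes tested, called under 0.05) for 4 pairs of groups with times pooled, as the study paired them, for the difference of genotype effects over 72 libraries, and for cosine and sine terms of a 24 h wave. The study used empirical JTK_CYCLE, and a version rewritten after its description is an alternative beside limma 3.58.1 and DESeq2 1.42.0. CPM are TMM-scaled with factors over 72 libraries. The tests were tested on simulated data. All 7 aquaporins are named. Of the other lists, the called genes with the largest fold changes are named, at most 5 a list, with Gk added after its values were seen, and for each aquaporin the 3 genes with the most similar profile of variance-stabilised means. Members and lists were chosen with earlier results of these data known. Sequences came from RefSeq (GRCm38.p6).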

Additional observations from a re-analysis of the deposited data

Results flagged for a closer look

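The genotype effect on Aqp4 differed between microbial states by a test of the difference itself: the log2 effect in GF mice minus that in SPF mice was -1.44. The fitted 24 h waves of Aqp11 and of Aqp8 differed between GF LKO and GF WT livers, by log2 sizes of 0.59 and 0.79. Each was called by edgeR's quasi-likelihood test over all genes, on genes chosen with these values known, and the loss of the calls of Aqp4 and Aqp8 with fewer libraries is given with the results.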

How the results depend on the processing

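The counts of called aquaporins moved by over 1.5 times as follows. With ZT as a covariate, and with ZT and a replicate block, 5 rather than 2 were called in GF LKO against GF WT, and, within that factor, 4 rather than 3 in SPF LKO against SPF WT (Aqp8 gained), where plain library totals left 2 (Aqp1 lost). Without a filter on low counts, which takes in Aqp3 and Aqp7, and on plain library totals, 1 rather than 0 was called in GF WT against SPF WT. For rhythm in GF WT, 2 rather than 4 were called by a test of any difference between times and by the empirical JTK, and the replicate block left 1 rather than 2 with a different rhythm in GF LKO against GF WT, as did leaving out the 4 libraries. Replicate numbers did not pair the livers, since 5, 2, 6 and 3 of 18 same-numbered pairs in the 4 contrasts correlated above 0.1, and the block changed no other count by over 1.5 times. Leaving out replicate numbers or single libraries (single libraries and plain totals were added after seeing the data) gave 1 to 3 calls for SPF LKO against SPF WT, 2 to 3 for GF LKO against GF WT, 0 to 0 for GF WT against SPF WT, 1 to 2 for GF LKO against SPF LKO, 0 to 1 for the difference of effects, 1 to 4 rhythmic in SPF WT, 1 to 3 in SPF LKO, 2 to 4 in GF WT and 1 to 2 in GF LKO, and 1 to 2 with a different rhythm in GF LKO against GF WT. In GF LKO against GF WT, Aqp1 was called without GF WT ZT22 replicate 3, GF LKO ZT2 replicate 1 or GF LKO ZT14 replicate 2, each at -0.13. On plain library totals the sign of Aqp1 turned to 0.055 in GF LKO against GF WT and -0.087 in GF LKO against SPF LKO (there -0.029 to 0.064 with a replicate number left out), that of Aqp9 to 0.047, -0.030 and -0.090 in SPF LKO against SPF WT, GF WT against SPF WT and GF LKO against SPF LKO, and that of Aqp11 to -0.050 in GF WT against SPF WT, none of them called. The mean level of Aqp1 in GF WT livers was then 120.1 rather than 134 CPM. The other member values gave 226 of 250 log2 fold changes with their direction and call as given. Depth limits Aqp3 and Aqp7, which had too few counts to pass the filter. Of the tested genes, Aqp4 in GF LKO livers rested on the fewest reads, 578 counts over 18 libraries.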
